A study of Mus musculus with 12 samples.

Results

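Potassium channel genes were followed in RNA from 12 mouse heart samples. They were taken as all genes in the 4 deposited tables whose symbol starts with Kcn, then letters and a number, which gave 67 of 18604 genes, 64 of them in every table. By symbol, 20 code for voltage-gated pore subunits, 5 for modifier subunits of voltage-gated channels, 12 for inward rectifiers, 8 for two-pore channels, 7 for channels gated by calcium or sodium and 13 for accessory subunits, and 2 are non-coding RNAs. The hearts came from male C57Bl/6J mice of 12 weeks. Control diet sham hearts were from mice on a diet that held branched-chain amino acids (BCAA) and had sham surgery, and control diet TAC hearts from mice on that diet after transverse aortic constriction (TAC), a band on the aorta that loads the left ventricle with pressure. BCAA-free sham and BCAA-free TAC hearts came from mice on a diet with no BCAA, with the same 2 surgeries. Both diets began 4 days before surgery and went on until hearts were taken 1 week after it. Each group had 3 libraries of polyA RNA, between 74206246 and 110452636 reads deep. The labels do not state that the 3 came from different animals, and p-values then reflect no more than the spread of these libraries, which could be technical.

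Potassium channels let potassium leave the cell and so repolarise heart muscle after each beat. In mouse ventricle, voltage-gated channels of the Kcnd and Kcna families carry the early and sustained outward currents, inward rectifiers of the Kcnj family hold the resting potential, and two-pore Kcnk channels give a background leak. Accessory subunits such as Kcnip2 and the Kcne proteins bind the pores and set how many reach the membrane and how they gate. Hypertrophied hearts are known for lower levels of several of these channels and a longer action potential.

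The bases before the start site are shown for 4 inward rectifier and two-pore genes, which moved in opposite directions. They were the 2 genes with the largest falls and the 2 with the largest rises with TAC on the control diet among those also called between the diets in TAC hearts, with a mean of at least 50 normalized reads and a single start window in the RefSeq table. Each run holds the 250 bases before the RefSeq start on GRCm38.p6, all on the + strand, at chr11:111065914-111066163, chr2:55435720-55435969, chr16:95257308-95257557 and chr12:99964249-99964498. Capitals mark matches to the motifs searched, which in these 4 windows were matches to the E-box CANNTG alone.
Kcnj2: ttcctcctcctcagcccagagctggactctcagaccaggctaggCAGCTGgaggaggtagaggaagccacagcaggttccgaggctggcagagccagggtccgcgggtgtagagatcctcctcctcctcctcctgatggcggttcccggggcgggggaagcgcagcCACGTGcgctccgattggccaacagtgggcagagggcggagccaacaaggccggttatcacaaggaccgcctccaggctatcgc
Kcnj3: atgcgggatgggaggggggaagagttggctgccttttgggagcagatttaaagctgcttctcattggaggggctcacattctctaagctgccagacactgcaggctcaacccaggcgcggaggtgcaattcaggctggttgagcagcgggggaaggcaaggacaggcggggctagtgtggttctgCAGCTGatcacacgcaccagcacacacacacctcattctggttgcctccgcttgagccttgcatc
Kcnj15: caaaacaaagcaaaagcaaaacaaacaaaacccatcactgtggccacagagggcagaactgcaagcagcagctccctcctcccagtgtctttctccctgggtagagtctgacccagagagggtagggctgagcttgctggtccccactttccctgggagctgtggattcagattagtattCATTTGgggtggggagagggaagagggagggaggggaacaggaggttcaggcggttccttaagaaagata
Kcnk13: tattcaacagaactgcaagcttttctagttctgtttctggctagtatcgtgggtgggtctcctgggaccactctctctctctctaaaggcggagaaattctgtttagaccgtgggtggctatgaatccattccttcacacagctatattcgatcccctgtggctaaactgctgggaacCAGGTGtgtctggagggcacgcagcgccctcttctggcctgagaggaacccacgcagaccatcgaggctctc
An E-box stood in all 4 windows, at positions -206 and -84 from the start in Kcnj2, -65 in Kcnj3, -70 in Kcnj15 and -72 in Kcnk13. It is a common motif that 66.2% of 32851 windows of this length hold, and genes that fell and genes that rose both had it. Also searched on both strands were TATAAA (12.4% of windows), ACANNTGT, which contains an E-box (6.31%), TGGAAA (18.6%), AGATAA (9.99%), the MEF2 site (0.508%) and the CArG box (1.47%), with no match in these 4 windows. Of the 67 genes, 51 had a window in the table.

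The heart markers Myh6, Tnnt2 and other cardiomyocyte genes were among the most abundant RNAs in every library, as the tissue label says. Some marker sums moved with the groups, in part through single genes. Summed over 8 cardiomyocyte markers, control diet TAC libraries held 4517943 to 5293677 normalized reads, below control diet sham (5706194 to 6271012), BCAA-free sham (6190991 to 6762403) and BCAA-free TAC libraries (6615780 to 7056766). Without Myh6 the control diet groups overlapped, at 2921378 to 3638326 in TAC and 3409972 to 3746050 in sham libraries, and 1 of the 8 markers, Pln, was called lower with TAC on the control diet. Without Myh6 the BCAA-free TAC libraries, at 4173649 to 4371828, still lay above control diet TAC. In TAC hearts 5 of the 8 were called higher on the BCAA-free than on the control diet and 0 lower, where 6.23% of all genes were higher. Sums over 5 fibroblast markers ran from 83331 to 108232 in control diet TAC and from 46198 to 58712 elsewhere, and sums over 6 macrophage markers from 16172 to 18497 and from 8636 to 12756, with 4 of 5 and 4 of 6 markers called higher with TAC on the control diet. In TAC hearts 2 of 5 and 6 of 6 were called lower on the BCAA-free than on the control diet and 0 higher, where 10.5% of all genes were lower. Sums over 6 atrial markers ran from 20768 to 66444 in sham hearts and from 81522 to 242688 in TAC hearts. Most of that sum in TAC hearts was Nppa, which loaded ventricles also make and which was the 1 atrial marker called with TAC on either diet. Without Nppa the sums were 7052 to 29995 in control diet sham and 17649 to 40781 in control diet TAC libraries, which overlapped, and 9983 to 20513 and 26377 to 30561 in BCAA-free sham and TAC libraries. No marker list was at 0 in any library. Mitochondrially coded reads made up 17.9% to 19.9% of control diet TAC libraries and 21.8% to 27.1% of the others. Of all libraries, control diet TAC 3 deviated most from the mean of its group, and structured RNAs were high in control diet sham 2 and in BCAA-free TAC 1 and 3. The part of these shifts in the results on potassium channel genes was not tested, and in whole hearts fewer cells of a type and less RNA per cell cannot be told apart.

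The most abundant potassium channel RNAs were those of a leak channel, a transient outward current subunit, an energy-sensing channel and a silent subunit. In reads scaled to exon length and library size (RPKM, the level used here to compare genes), Kcnk3 stood at 59.3, Kcnip2 at 37.1, Kcnj11 at 36.3 and Kcng2 at 28.5 on average over the 12 libraries. Together these 4 made up 56.4% of the summed level of the family. Kcnj5 (16.0), Kcnh2 (15.9), Kcnj8 (15.8) and Kcnj3 (12.7) followed, and these neighbours overlapped in their libraries. Kcna5, Kcnq1, Kcnj12, Kcnj2, Kcnd2, Kcnn1 and Kcna7 were among those that lay between 2.32 and 8.75. In all, 23 genes reached 1 RPKM, 8 of them reached 10 RPKM, and 16 were under 0.1 RPKM. Inward rectifiers held 32.8% of the summed level, two-pore channels 21.7%, voltage-gated pores 17.3%, accessory subunits 15.2%, modifier subunits 10.7% and channels gated by calcium or sodium 2.12%.

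**Figure D1:**
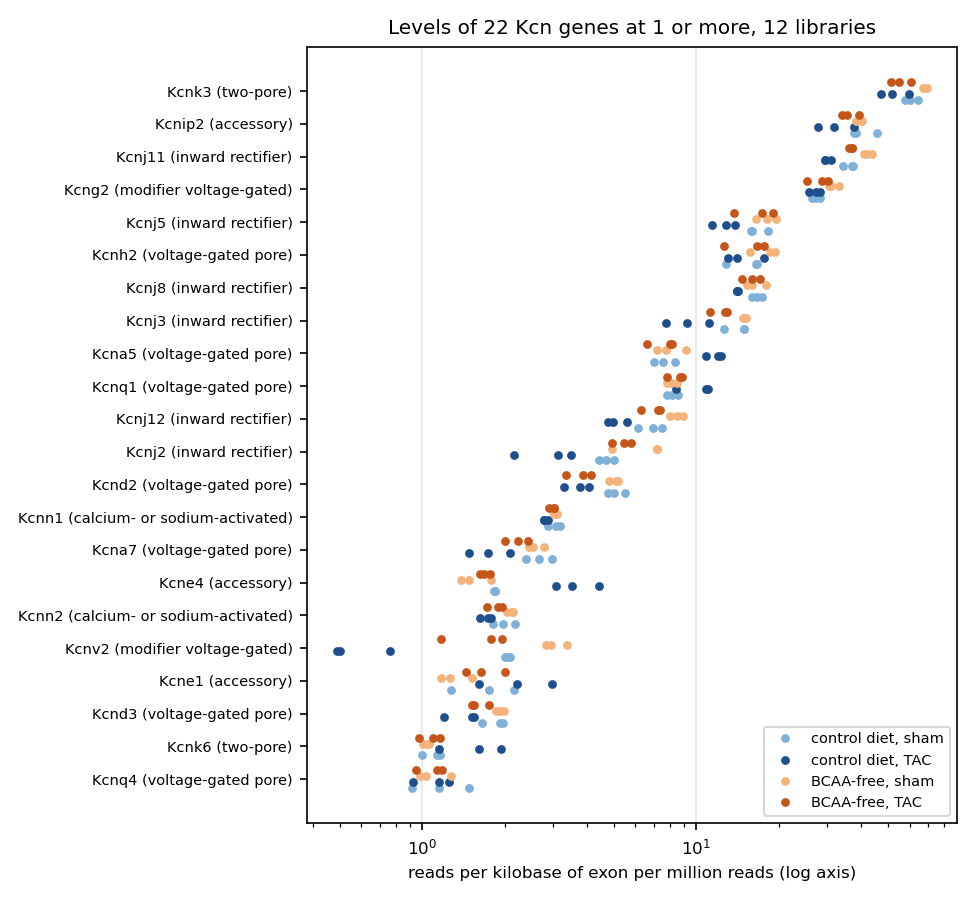
Level of 22 of the potassium channel genes at or above 1 RPKM (log axis), each point 1 library and each colour 1 group of 3 libraries, with the class in brackets. Kcnk3 is highest at 59.3 RPKM on average, and the control diet TAC points of Kcnv2 lie far below those of the other groups.

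The family's summed normalized reads were lowest in control diet TAC hearts. On the control diet they came to 107670 ± 1636 after sham surgery and 83784 ± 3728 after TAC, and on the BCAA-free diet to 118794 ± 2696 and 105498 ± 6562 (mean ± SD over 3 libraries). The 3 control diet TAC libraries, at 79927 to 87368, were all below the other 9, at 97992 to 120871. As a share of all reads the family made up 0.118 ± 0.00411% after sham surgery and 0.104 ± 0.00500% after TAC on the control diet, and 0.128 ± 0.00120% and 0.112 ± 0.00715% on the BCAA-free diet. On this measure the lowest BCAA-free TAC library (0.104%) lay within the control diet TAC range (0.0996% to 0.109%).

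With TAC on the control diet, the channels of cardiac repolarisation fell and several low-level channels rose. Of 67 genes tested, 14 fell (20.9%) and 8 rose (11.9%), where 5.64% of all 18305 genes tested fell and 9.17% rose. A gene counted as fallen or risen here if its adjusted p in limma was below 0.05 (Benjamini-Hochberg over all genes tested), and fold changes are log2 values on the scale of log2(normalized reads + 1). The median change was -0.09 over the family and -0.02 over all genes. Among the 23 genes at 1 RPKM or more, a split chosen after the data were seen, 11 fell and 2 rose, against 7.33% and 8.82% of all genes at that level. Among the 44 below it, 3 fell and 6 rose, against 3.07% and 9.72%. Without control diet TAC 3 the counts were 17 falls and 14 rises, while the share of all genes that fell went to 12.1% and that of rises to 13.6%, and in the other fits that left out 1 library 5 to 11 falls and 3 to 5 rises. The shares of all genes also dropped in those other fits, to 2.03% to 4.10% for falls and 4.84% to 6.10% for rises.

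On the BCAA-free diet few genes of the family were called with TAC, and 0 of these calls held in every fit that left out 1 library. Of 64 tested, 5 fell (7.81%), among them Kcnv2, Kcnd2, Kcnk3 and Kcnj3, and 0 rose, where 4.41% of all 17611 genes fell and 3.31% rose. At an unadjusted p below 0.05 there were 4 genes higher and 10 lower. Counts at an unadjusted p, here and below, have no share of all genes beside them and cannot be taken as particular to the family. The other tests, edgeR and DESeq2, also called 0 rises, against 3.48% and 4.95% of all genes. The 5 falls dropped to 1, that of Kcnv2, when all 12 libraries shared 1 model, and to between 0 and 5 when 1 library was left out. Of all genes, 0.717% fell in the former fit and 1.69% to 3.62% in the latter ones. The 2 TAC comparisons share no library, and 3 genes, Kcnv2, Kcnd2 and Kcnj3, were among the 14 falls on the control diet and the 5 on the BCAA-free diet.

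In sham hearts the diet without BCAA moved 3 genes. Kcnv2 and Kcnj11 were higher (3.08% of 65 tested, against 1.27% of all 17862 genes) and Kcnk2 was lower (1.54%, against 2.27%). When all 12 libraries shared 1 model, 0 were higher and 0 lower, against 0.198% and 0.644% of all genes. In TAC hearts it moved 19. Of 66 tested, 9 were higher (13.6%, against 6.23% of all 18039 genes) and 10 lower (15.2%, against 10.5%). With control diet TAC 3 left out the counts were 15 and 13, while 16.2% of all genes were higher and 17.3% lower, and with any other library left out 4 to 9 higher and 3 to 7 lower. This comparison shares the control diet TAC libraries with that of TAC on the control diet, so the 2 changes of a gene, given side by side, are not independent.

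**Figure D2:**
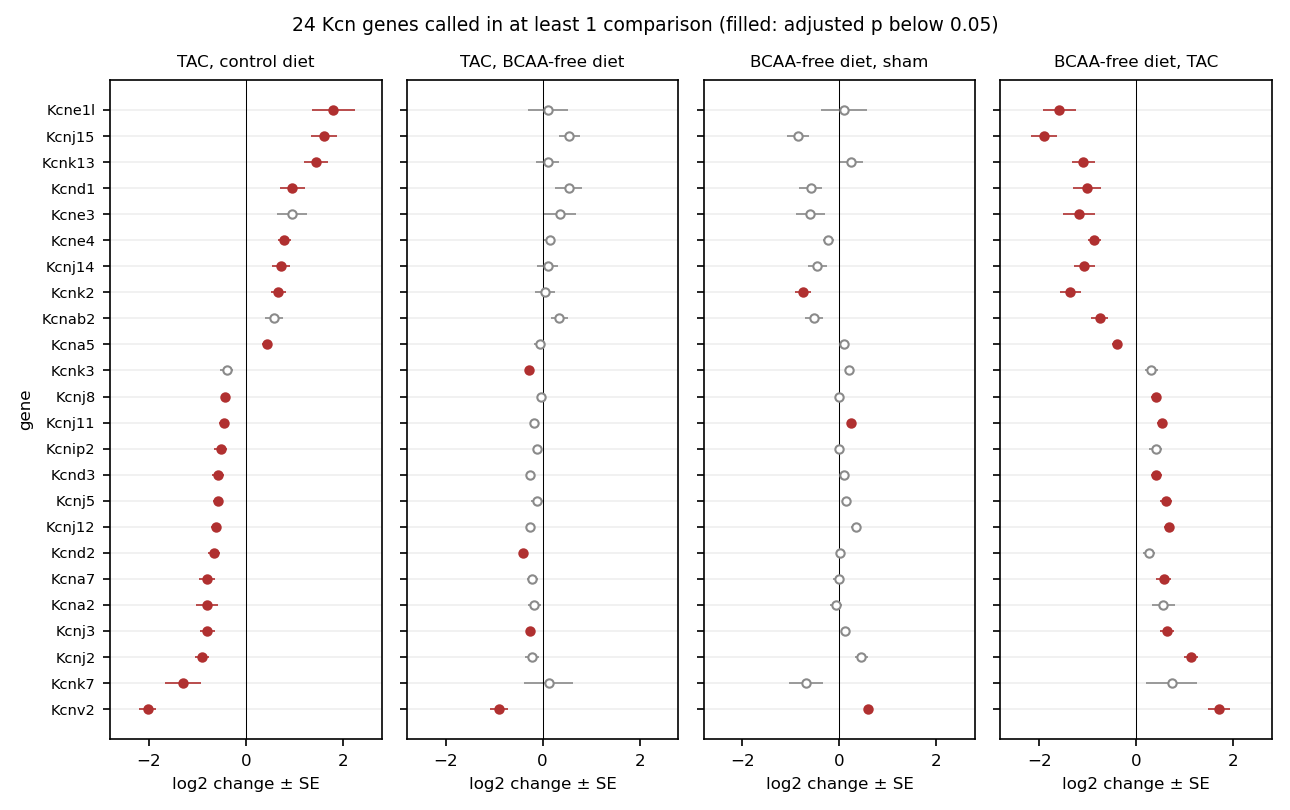
Log2 change ± SE (bars) of 24 of the genes called in at least 1 comparison, in TAC against sham on each diet and in BCAA-free against control diet after each surgery. Filled points have an adjusted p below 0.05. The left and right panels share the control diet TAC libraries, and Kcnv2 at the bottom is filled in all 4 panels.

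**Figure D3:**
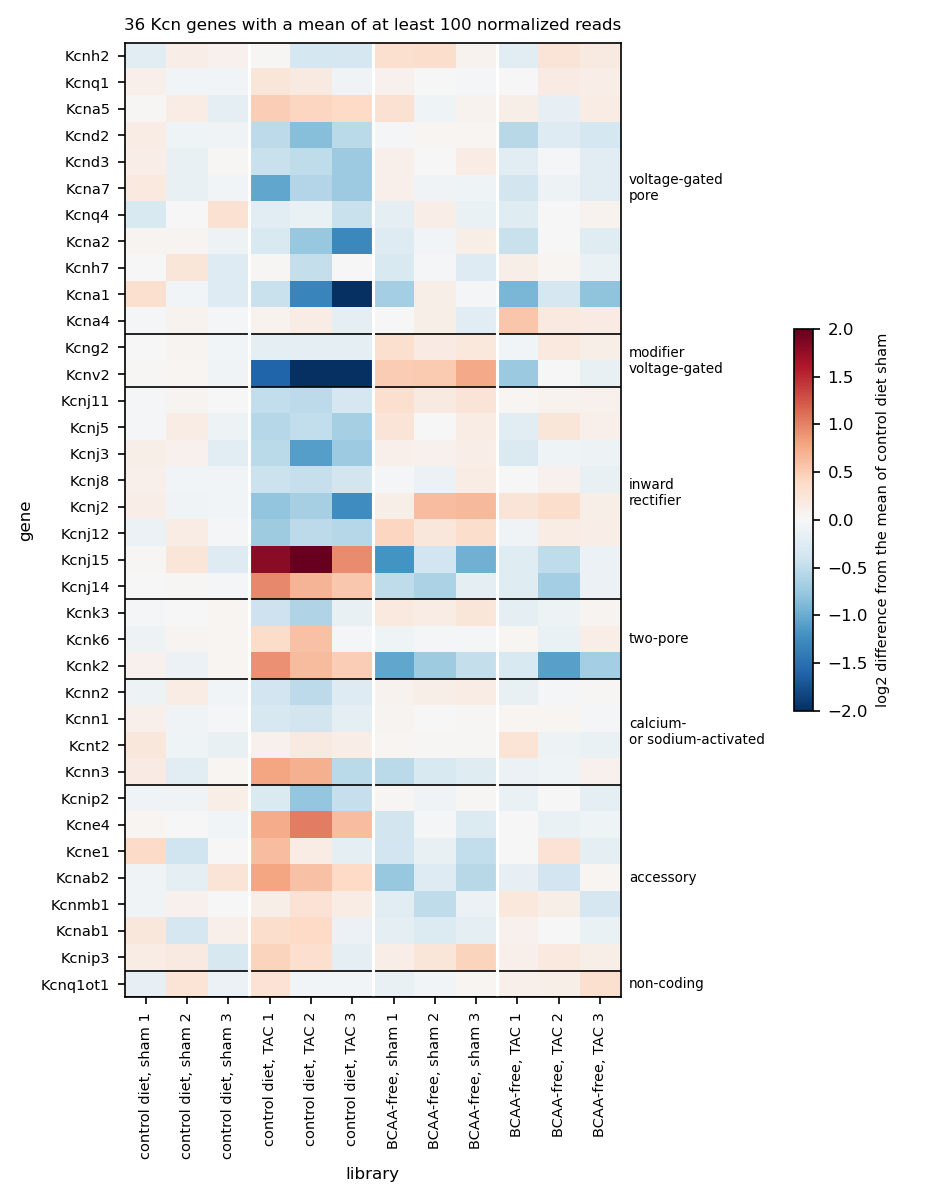
Log2 difference of each library from the mean of control diet sham for 36 of the genes with a mean of at least 100 normalized reads, ordered by class (rows) and group (columns), with colours limited to 2 in either direction. The 3 control diet TAC columns hold most of the strong colours, with Kcnj15 high and Kcnv2 low in all 3.

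Kcnv2 (GRCm38 chromosome 19, 27322588 to 27337179, + strand), which codes for a subunit that forms no channel alone and joins other pores, had the largest fall. It stood at 971, 980.2 and 907 normalized reads in control diet sham and at 311, 199 and 211 in control diet TAC libraries. On the BCAA-free diet it stood at 1349.8, 1374 and 1608 in sham and 568, 942 and 857 in TAC libraries. The 4 groups followed each other in the order BCAA-free sham, control diet sham, BCAA-free TAC and control diet TAC, with overlap between none but control diet sham and BCAA-free TAC, where 1 TAC library (942) lay above the lowest sham library (907). TAC changed it by -2.02 ± 0.18 (SE, adjusted p = 0.000444) on the control diet and by -0.90 ± 0.19 (SE, adjusted p = 0.0348) on the BCAA-free diet. The BCAA-free diet changed it by 0.59 ± 0.09 (SE, adjusted p = 0.00886) in sham hearts and by 1.71 ± 0.23 (SE, adjusted p = 0.00147) in TAC hearts. Its fall on the BCAA-free diet lost its call without BCAA-free sham 1, 2 or 3 or BCAA-free TAC 3 (adjusted p from 0.0672 to 0.101), and its higher level on that diet in sham hearts when all 12 libraries shared 1 model (adjusted p = 0.139).

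Kcng2, another silent subunit and the most abundant modifier, changed by -0.20 (adjusted p = 0.158) and -0.15 (adjusted p = 0.219) with TAC on the control and BCAA-free diets, and by 0.23 (adjusted p = 0.0605) and 0.28 (adjusted p = 0.0789) with diet in sham and TAC hearts. None of these passed in limma, although the change in sham hearts did in DESeq2 (adjusted p = 0.0195) and without control diet sham 2 (adjusted p = 0.0493) and that in TAC hearts in DESeq2 (adjusted p = 0.047), in 1 model of 12 libraries (adjusted p = 0.0168) and without control diet TAC 3 (adjusted p = 0.0210).

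The transient outward current, which starts repolarisation in mouse ventricle, is formed by Kcnd2 and Kcnd3 pores with the calcium-binding subunit Kcnip2. All 3 fell with TAC on the control diet. Kcnd2 (chromosome 6, 21215503 to 21729805, + strand) went from 2638, 2252 and 2283 normalized reads in sham to 1668, 1315 and 1636 in TAC libraries, a change of -0.65 ± 0.12 (SE, adjusted p = 0.0102). On the BCAA-free diet it went from 2320.3, 2439.8 and 2462 to 1625, 1999.7 and 1878, a change of -0.40 ± 0.08 (SE, adjusted p = 0.0106). Kcnd2 was thus lower after TAC on both diets with no overlap on either, and the diet change in TAC hearts was 0.26 (adjusted p = 0.195). The BCAA-free fall was lost without BCAA-free sham 3 (adjusted p = 0.0558) and when all 12 libraries shared 1 model (adjusted p = 0.0836).

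Kcnd3 stood at 1762, 1453 and 1635 in control diet sham and 1185, 1134 and 969 in control diet TAC libraries. Without BCAA the values were 1731, 1627 and 1788 after sham surgery and 1371, 1581 and 1393 after TAC. It fell by 0.57 with TAC on the control diet (adjusted p = 0.0141), changed by -0.25 (adjusted p = 0.0664) on the BCAA-free diet and was higher by 0.41 in BCAA-free than in control diet TAC hearts (adjusted p = 0.036). The first call was lost without control diet sham 1 or 3 (adjusted p from 0.0606 to 0.0642). The last was lost without control diet TAC 1 or 2 or BCAA-free TAC 1, 2 or 3 (adjusted p from 0.0593 to 0.178). The change on the BCAA-free diet passed without BCAA-free TAC 2 (adjusted p = 0.0318). Its antisense RNA Kcnd3os overlaps it, and without a known strand setting their reads cannot be told apart. Kcnip2 went from 12235, 12214 and 13983 to 10416, 7508 and 9295 with TAC on the control diet, a fall of 0.52 (adjusted p = 0.0337), and ran from 12148 to 13031 in BCAA-free sham and 11185 to 12808 in BCAA-free TAC libraries. That fall was lost without control diet sham 1, 2 or 3 or control diet TAC 2 (adjusted p from 0.0797 to 0.135). Its changes with TAC on the BCAA-free diet, -0.11 (adjusted p = 0.327), and with diet in TAC hearts, 0.40 (adjusted p = 0.0638), did not pass, but the latter did without control diet TAC 3 (adjusted p = 0.0347).

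Other voltage-gated pores moved in both directions. Kcna5 (chromosome 6, 126532551 to 126535412, - strand), which carries an ultrarapid delayed rectifier, stood at 2031, 2203 and 1764 normalized reads in control diet sham and 2806, 2674 and 2621 in control diet TAC libraries. In the BCAA-free groups it stood at 2460.2, 1875 and 2081 (sham) and 2164, 1786 and 2203 (TAC). The control diet TAC libraries lay above all 9 others. It rose by 0.43 with TAC on the control diet (adjusted p = 0.026), was lower by 0.40 in BCAA-free than in control diet TAC hearts (adjusted p = 0.0316), and changed by -0.06 (adjusted p = 0.788) with TAC on the BCAA-free diet. The call for TAC was lost without control diet sham 1 or 3 or control diet TAC 1 or 2 (adjusted p from 0.0576 to 0.117). The call for diet was lost without control diet TAC 1 or 2 or BCAA-free TAC 1, 2 or 3 (adjusted p from 0.0624 to 0.161). Kcna7, a pore found mainly in heart and skeletal muscle, stood at 608, 480.5 and 513 in control diet sham and 258, 354 and 319 in control diet TAC libraries. BCAA-free sham libraries held 569.9, 508 and 502 and TAC libraries 412, 497 and 459. It fell by 0.79 with TAC on the control diet (adjusted p = 0.0136) and was higher by 0.57 in BCAA-free than in control diet TAC hearts (adjusted p = 0.0378). The call for TAC was lost without control diet sham 1 or control diet TAC 1 (adjusted p from 0.0522 to 0.0629). The call for diet was lost without control diet TAC 1 or BCAA-free TAC 1, 2 or 3 (adjusted p from 0.0636 to 0.168).

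Lower in level, the delayed rectifier Kcna2 fell with TAC on the control diet and Kcnd1, a pore of the same family as Kcnd2, rose. Kcna2 went from 417, 419.6 and 376 to 327, 237 and 165 normalized reads, a change of -0.79 ± 0.23 (SE, adjusted p = 0.0474). Kcnd1 went from 48.5, 52.3 and 51.2 to 109.7, 126 and 72.7, a change of 0.96 ± 0.25 (SE, adjusted p = 0.0319). The call of Kcna2 was lost without control diet sham 1, 2 or 3 or control diet TAC 2 (adjusted p from 0.0914 to 0.141), and that of Kcnd1 without control diet sham 1, 2 or 3 or control diet TAC 1 or 2 (adjusted p from 0.0821 to 0.113). In TAC hearts Kcnd1 was lower on the BCAA-free diet by 1.01 (adjusted p = 0.0414), a call lost without control diet TAC 1 or 2 or BCAA-free TAC 1, 2 or 3 (adjusted p from 0.0662 to 0.166). The pores of the slow and rapid delayed rectifiers, which matter most in larger mammals, were abundant and did not pass. Kcnq1 changed by 0.11 (adjusted p = 0.556) and Kcnh2 by -0.23 (adjusted p = 0.292) with TAC on the control diet, and Kcnq1 and its non-coding partner Kcnq1ot1 share a locus. The Kcnq1 accessory subunit Kcne1 ran from 378 to 650.4 in control diet sham and 437 to 763 in control diet TAC libraries, and Kcna4, the slow transient outward pore, from 128 to 138 and 115 to 146, so that both overlapped between these groups.

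**Figure D4:**
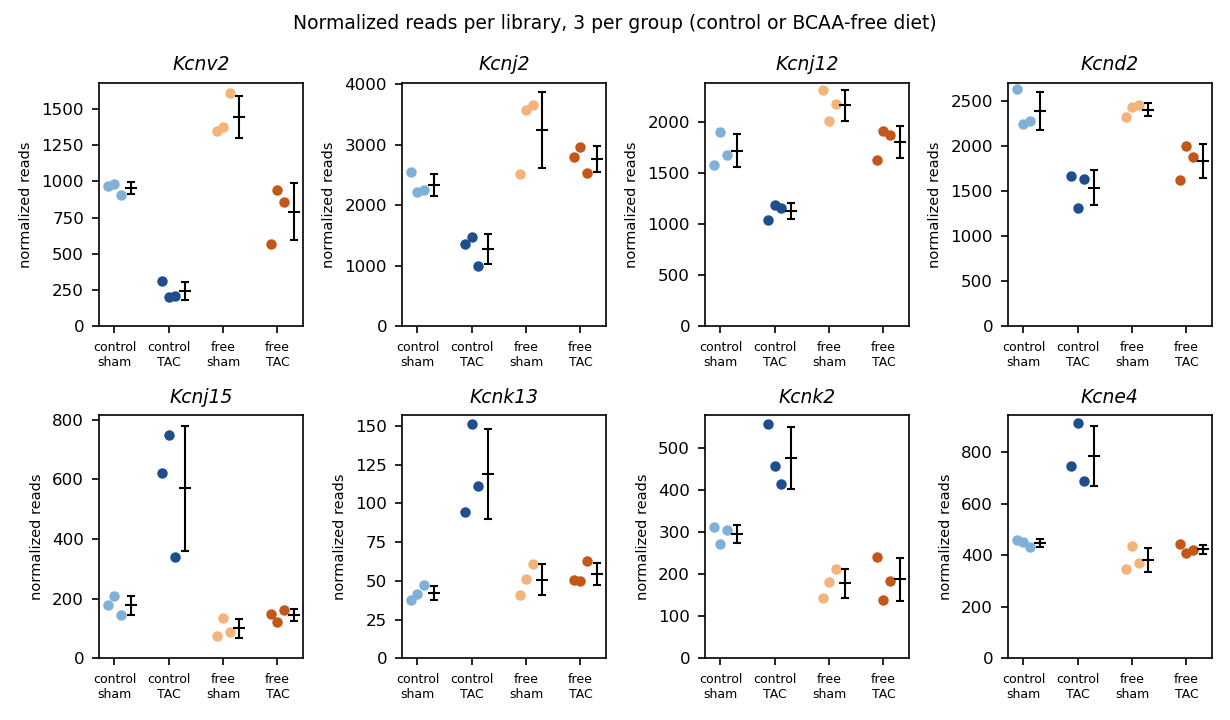
Normalized reads of 8 genes in each of the 12 libraries (points), with mean ± SD of each group of 3 beside them (bars), on axes from 0. In the upper row, Kcnv2, Kcnj2 and Kcnj12 are lowest in control diet TAC and Kcnd2 is lower in TAC on both diets. In the lower row, Kcnj15, Kcnk13, Kcnk2 and Kcne4 are highest in control diet TAC.

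With TAC on the control diet the inward rectifiers had the largest share of called genes of any class, 66.7%, where 14.8% of all genes tested were called. Of 12 tested 6 fell, which were all 6 at or above 1 RPKM, and 2 low-level members rose. Kcnj2 and Kcnj12 form the classical inward rectifier that holds the resting potential of the ventricle. Kcnj2 (chromosome 11, 111066164 to 111076821, + strand) stood at 2548, 2219.8 and 2252 normalized reads in control diet sham and 1355, 1479.8 and 992 in control diet TAC libraries. Without BCAA the values were 2522, 3572 and 3653 after sham surgery and 2802, 2966 and 2529 after TAC. All 3 control diet TAC libraries lay below all 9 others. The change was -0.90 ± 0.15 (SE, adjusted p = 0.00525) with TAC on the control diet, -0.22 (adjusted p = 0.44) with TAC on the BCAA-free diet, 0.45 (adjusted p = 0.132) with diet in sham hearts and 1.14 ± 0.15 (SE, adjusted p = 0.00124) with diet in TAC hearts. The second passed without BCAA-free sham 1 (adjusted p = 0.0191), as did the third (adjusted p = 0.0287). Kcnj12 (chromosome 11, 61022564 to 61071131, + strand) stood at 1579, 1903 and 1681 and 1043, 1192 and 1157 on the control diet. In the BCAA-free groups it stood at 2313, 2009 and 2179 (sham) and 1628, 1910.0 and 1878 (TAC). It too was lowest in control diet TAC, changed by -0.61 ± 0.11 (SE, adjusted p = 0.00742) with TAC on the control diet and 0.68 ± 0.11 (SE, adjusted p = 0.00314) with diet in TAC hearts, and by -0.27 (adjusted p = 0.0596) and 0.33 (adjusted p = 0.0593) in the other comparisons. The change in sham hearts passed without control diet sham 2 (adjusted p = 0.0196).

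Kcnj3 and Kcnj5 form the channel that acetylcholine opens through G proteins, best known from atria and pacemaker cells. Kcnj3 (chromosome 2, 55435970 to 55598145, + strand) went from 7292, 7177 and 5815 to 4629, 3141 and 4072 normalized reads with TAC on the control diet, and from 7232, 7122 and 7392 to 5532, 6349.9 and 6274 on the BCAA-free diet. It fell on both diets with no overlap, by 0.80 (adjusted p = 0.0105) and 0.27 (adjusted p = 0.0239), and was higher by 0.64 in BCAA-free than in control diet TAC hearts (adjusted p = 0.015). The first of these calls was lost without control diet sham 1 (adjusted p = 0.0514). The second was lost without BCAA-free sham 1, 2 or 3 or BCAA-free TAC 1 (adjusted p from 0.0523 to 0.0956), and in 1 model of 12 libraries (adjusted p = 0.355). The last was lost without BCAA-free TAC 2 or 3 (adjusted p from 0.0701 to 0.079). Kcnj5 (chromosome 9, 32314707 to 32344350, - strand) stood at 6932, 7879 and 6596 and 4807, 5037 and 4496 on the control diet. BCAA-free sham libraries held 8552, 7077 and 7907 and TAC libraries 6050.0, 8381 and 7644. It changed by -0.58 ± 0.10 (SE, adjusted p = 0.0064) with TAC on the control diet, -0.11 (adjusted p = 0.685) with TAC on the BCAA-free diet and 0.62 ± 0.13 (SE, adjusted p = 0.0104) with diet in TAC hearts. The last call was lost without BCAA-free TAC 2 or 3 (adjusted p from 0.0559 to 0.0621). Both were thus lower in control diet TAC libraries. There the 5 atrial markers other than Nppa summed to 17649 to 40781 normalized reads, overlapping the 7052 to 29995 of control diet sham. Sums over 5 conduction markers ran from 2137 to 3151 in control diet TAC and from 3438 to 4245 in control diet sham libraries. With TAC on the control diet 2 of these 5 were called lower. Without Hcn4 the conduction sums overlapped, at 1637 to 2331 and 2322 to 3179. The part of these markers in the falls of Kcnj3 and Kcnj5 was not tested.

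Kcnj11 and Kcnj8 are the pores of channels that close when ATP is plentiful, Kcnj11 chiefly in muscle cells and Kcnj8 chiefly in pericytes and vascular smooth muscle. Kcnj11 (chromosome 7, 46093953 to 46100764, - strand) stood at 11765, 12581 and 12035 normalized reads in control diet sham and 8623, 8436 and 9622 in control diet TAC libraries. Without BCAA the values were 15109, 13701 and 14481 after sham surgery and 12509, 12786 and 12853 after TAC. BCAA-free sham libraries were the highest and control diet TAC libraries the lowest, with no overlap with any other group. The change was -0.46 ± 0.10 (SE, adjusted p = 0.016) with TAC on the control diet, 0.25 ± 0.06 (SE, adjusted p = 0.0449) with diet in sham hearts and 0.52 ± 0.10 (SE, adjusted p = 0.00672) with diet in TAC hearts, while that with TAC on the BCAA-free diet was -0.19 (adjusted p = 0.0551). The first call was lost without control diet sham 1, 2 or 3 or control diet TAC 1 or 2 (adjusted p from 0.0507 to 0.0763). The second was lost without control diet sham 1 or 3 or BCAA-free sham 1, 2 or 3 (adjusted p from 0.0721 to 0.188), without the robust option (adjusted p = 0.0507) and in 1 model of 12 libraries (adjusted p = 0.113). Kcnj8 ran from 3736 to 4151 in control diet sham to 2813 to 3012 in control diet TAC libraries, and from 3553 to 4276 and 3513 to 4100.4 on the BCAA-free diet. It fell by 0.43 with TAC on the control diet (adjusted p = 0.017) and was higher by 0.40 in BCAA-free than in control diet TAC hearts (adjusted p = 0.0206). The first of these calls was lost without control diet sham 1, 2 or 3 or control diet TAC 1 or 2 (adjusted p from 0.0521 to 0.075). The second was lost without control diet TAC 1 or 2 or BCAA-free TAC 1 or 2 (adjusted p from 0.0586 to 0.123). Summed over 6 pericyte markers, of which Kcnj8 is 1, libraries held 65730 to 88007 normalized reads in control diet TAC and 93603 to 113348 elsewhere. The list also holds Abcc9, without which these ranges overlapped, at 52687 to 71585 and 68072 to 82699. That overlap was with the BCAA-free groups, as control diet sham libraries, at 71917 to 82699, still lay above control diet TAC. No marker but Kcnj8 and Abcc9 was called lower with TAC on the control diet.

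Kcnj15 and Kcnj14, inward rectifiers better known from other organs than the heart, went the other way. Kcnj15 (chromosome 16, 95257558 to 95300260, + strand) stood at 178, 208 and 146 normalized reads in control diet sham and 619, 749.6 and 340.0 in control diet TAC libraries. In the BCAA-free groups it stood at 76.1, 135 and 89.5 (sham) and 149, 123 and 162 (TAC). All control diet TAC libraries lay above all others, control diet TAC 3 nearest to them. The change was 1.61 ± 0.27 (SE, adjusted p = 0.00614) with TAC on the control diet, 0.55 (adjusted p = 0.152) on the BCAA-free diet, -0.85 (adjusted p = 0.0698) with diet in sham hearts and -1.90 ± 0.27 (SE, adjusted p = 0.00189) with diet in TAC hearts. That in sham hearts passed without BCAA-free sham 2 (adjusted p = 0.0491). Kcnj14 went from 99.0, 100.4 and 96.7 to 192, 159 and 145 with TAC on the control diet and ran from 61.3 to 91.1 in BCAA-free TAC libraries. It rose by 0.72 (adjusted p = 0.0305) and was lower by 1.07 in BCAA-free than in control diet TAC hearts (adjusted p = 0.0109). The first of these calls was lost without control diet sham 1, 2 or 3 or control diet TAC 1 or 2 (adjusted p from 0.0664 to 0.118). The second was lost without control diet TAC 1 or BCAA-free TAC 2 (adjusted p from 0.0534 to 0.0541). Of the other inward rectifiers, Kcnj4, Kcnj10 and Kcnj13 had means under 50 normalized reads and Kcnj6 was in 2 of the tables.

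Among two-pore channels 1 fell and 2 rose of 8 with TAC on the control diet, where 5.64% of all genes fell and 9.17% rose. Kcnk3 (chromosome 5, 30588170 to 30625271, + strand), an acid-sensitive leak channel, stood at 21393, 22029.8 and 22578 normalized reads in control diet sham and 16456, 14557 and 19928 in control diet TAC libraries. BCAA-free sham libraries held 25195, 24449.7 and 25915 and TAC libraries 19195, 20551 and 22793. TAC libraries lay below sham libraries on both diets. The change was -0.39 ± 0.13 (SE, adjusted p = 0.0761) with TAC on the control diet, which did not pass, and -0.28 ± 0.07 (SE, adjusted p = 0.024) on the BCAA-free diet, which did. In 1 model of 12 libraries the first passed (adjusted p = 0.0141) and the second did not (adjusted p = 0.213). The first also passed in DESeq2 (adjusted p = 0.0413) and without control diet TAC 3 (adjusted p = 0.00231). The call on the BCAA-free diet was lost without BCAA-free sham 1, 2 or 3 or BCAA-free TAC 1 (adjusted p from 0.0519 to 0.0984). With diet it changed by 0.19 (adjusted p = 0.0741) in sham and 0.31 (adjusted p = 0.152) in TAC hearts, the latter passing without control diet TAC 3 (adjusted p = 0.00299).

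Kcnk2 (chromosome 1, 189207930 to 189402273, - strand), which opens with membrane stretch, stood at 313, 271 and 305 normalized reads in control diet sham and 557, 456 and 415 in control diet TAC libraries. Without BCAA the values were 143, 181 and 212 after sham surgery and 240.4, 139 and 185 after TAC. All BCAA-free libraries lay below all control diet libraries. It rose by 0.67 with TAC on the control diet (adjusted p = 0.0201) and changed by 0.05 (adjusted p = 0.926) on the BCAA-free diet. On the BCAA-free diet it was lower by 0.74 in sham hearts (adjusted p = 0.037) and by 1.36 in TAC hearts (adjusted p = 0.00303). The call for TAC was lost without control diet sham 1, 2 or 3 or control diet TAC 1 (adjusted p from 0.0551 to 0.0827). That in sham hearts was lost without control diet sham 1 or 3 or BCAA-free sham 1, 2 or 3 (adjusted p from 0.0569 to 0.13) and in 1 model of 12 libraries (adjusted p = 0.0946).

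Kcnk13 (chromosome 12, 99964499 to 100062682, + strand), a leak channel that halothane blocks, stood at 37.9, 41.6 and 47.2 normalized reads in control diet sham and 94.2, 151 and 111 in control diet TAC libraries. In the BCAA-free groups it stood at 40.6, 51.4 and 60.5 (sham) and 50.4, 49.96 and 62.8 (TAC). The control diet TAC libraries lay above all others, and the other 3 groups overlapped. The change was 1.44 ± 0.24 (SE, adjusted p = 0.00575) with TAC on the control diet, 0.10 (adjusted p = 0.856) on the BCAA-free diet and -1.09 ± 0.24 (SE, adjusted p = 0.0147) with diet in TAC hearts. The last call was lost without control diet TAC 2 or BCAA-free TAC 1 or 2 (adjusted p from 0.0528 to 0.0698). Kcnk7, for which no current of its own is known, went from 35.9, 38.4 and 37.6 to 16.9, 22.3 and 8.35 with TAC on the control diet. It fell by 1.30 (adjusted p = 0.0481), a call that rests on few reads and was lost without control diet sham 1, 2 or 3 or control diet TAC 1 or 3 (adjusted p from 0.054 to 0.135) and in 1 model of 12 libraries (adjusted p = 0.0725). Kcnk6 ran from 387 to 432 in control diet sham and 404 to 625 in control diet TAC libraries, which overlapped.

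Channels gated by calcium or sodium were not called in any comparison with limma. With TAC on the control diet 2 of 7 were lower at an unadjusted p below 0.05 and 0 were higher. Both edgeR and DESeq2 called 1 lower, against 6.15% and 8.06% of all genes. Kcnn1 and Kcnn2, small-conductance channels that calcium opens, were the most abundant. Kcnn1 went from 1368, 1218 and 1248 to 1021, 992 and 1109 normalized reads with TAC on the control diet, a change of -0.30 (adjusted p = 0.0868), and ran from 1271 to 1330.5 and 1259 to 1315 in BCAA-free sham and TAC libraries. Kcnn2 went from 1265, 1494 and 1306 to 1040.3, 944 and 1127, a change of -0.39 (adjusted p = 0.0507), and changed by -0.17 (adjusted p = 0.189) with TAC on the BCAA-free diet. For both genes the control diet TAC libraries lay below every other library. Kcnn2 was called by edgeR (adjusted p = 0.045) and DESeq2 (adjusted p = 0.0235), and in limma without control diet TAC 3 (adjusted p = 0.011), as was Kcnn1 (adjusted p = 0.0226). With diet in TAC hearts they changed by 0.32 (adjusted p = 0.0551) and 0.34 (adjusted p = 0.064). In that comparison 3 of 7 were higher at an unadjusted p below 0.05, and edgeR called 1 and DESeq2 3, against 6.57% and 8.47% of all genes. In the other pairwise comparisons edgeR and DESeq2 called 0 of this class, and at an unadjusted p below 0.05 there were 1 higher and 1 lower with TAC on the BCAA-free diet and 0 with diet in sham hearts. The large-conductance channel Kcnma1 was near the detection limit, at 20.2 ± 6.77 in control diet sham hearts (mean ± SD, n = 3).

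Accessory subunits other than Kcnip2 were higher in control diet TAC where they were called. Kcne4 (chromosome 1, 78816758 to 78820028, + strand), which inhibits Kcnq1 and some Kcna pores, stood at 459, 452 and 430.1 normalized reads in control diet sham and 747, 914 and 689 in control diet TAC libraries. BCAA-free sham libraries held 345, 435 and 368 and TAC libraries 442, 408 and 421. Its control diet TAC libraries lay above all others, and the change was 0.79 ± 0.13 (SE, adjusted p = 0.00591) with TAC on the control diet, 0.15 (adjusted p = 0.5) on the BCAA-free diet and -0.87 ± 0.13 (SE, adjusted p = 0.00278) with diet in TAC hearts. Kcne1l, a further subunit of the Kcne family, went from 24.3, 7.47 and 8.79 to 50.8, 35.5 and 45.9 with TAC on the control diet and ran from 11.4 to 19.7 in BCAA-free TAC libraries. It rose by 1.80 (adjusted p = 0.0261) and was lower by 1.58 in BCAA-free than in control diet TAC hearts (adjusted p = 0.0118). Both calls rest on few reads. The first was lost without control diet sham 2 or 3 or control diet TAC 1 (adjusted p from 0.0834 to 0.102) and the second without control diet TAC 1 or BCAA-free TAC 2 (adjusted p from 0.0558 to 0.0579). Kcne3 and the oxidoreductase-like subunit Kcnab2 changed by 0.95 (adjusted p = 0.0705) and 0.58 (adjusted p = 0.0582) with TAC on the control diet, which passed without control diet TAC 3 (adjusted p = 0.0149 and 0.0231). In TAC hearts both were lower on the BCAA-free diet, by 1.19 (adjusted p = 0.0354) and 0.75 (adjusted p = 0.0185). The first of these calls was lost without control diet TAC 1 or 2 or BCAA-free TAC 1, 2 or 3 (adjusted p from 0.079 to 0.14). The second was lost without control diet TAC 1 or BCAA-free TAC 1 or 2 (adjusted p from 0.057 to 0.0928). Kcnab2 overlaps Nphp4, so their reads may be shared.

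Several changes that did not pass in limma were called by other fits, given here with the adjusted p in brackets. For TAC on the control diet these were, in DESeq2, Kcnk3 (0.0413), Kcnab2 (0.0184), Kcne3 (0.0381) and Kcnn2 (0.0235). The model of all 12 libraries called Kcnk3 (0.0141), Kcnab2 (0.0273), Kcne3 (0.0321), Kcnn2 (0.00758) and Kcnn1 (0.0133). For TAC on the BCAA-free diet DESeq2 added Kcnd3 (0.0473), Kcnj12 (0.033) and Kcnj11 (0.0323). In sham hearts it called Kcnj2 (0.00653), Kcnj12 (0.0132), Kcnk3 (0.0259), Kcng2 (0.0195) and Kcnj15 (0.0155) between the diets. In TAC hearts it called Kcnn1 (0.0341), Kcnip2 (0.0345), Kcnn2 (0.0446) and Kcng2 (0.047). There the model of all 12 libraries called Kcnn1 (0.00949), Kcnip2 (0.0148), Kcnn2 (0.0164), Kcng2 (0.0168) and Kcnk3 (0.0437). Of these DESeq2 calls, the adjusted p in the authors' deposited table was also below 0.05 in all but that of Kcng2 in TAC hearts.

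The 2 TAC responses were set side by side over the 38 genes with a mean of at least 100 normalized reads. The change had the same sign on both diets in 33 of them and was larger in size on the control diet in 32, with a median size of 0.44 on the control and 0.19 on the BCAA-free diet. As a description across genes, which are not independent replicates, Pearson's r was 0.851 and Spearman's rho 0.823. Over all 64 genes measured in both comparisons the signs matched in 47, r was 0.508 and rho 0.534. These counts were not made over all genes, so they cannot be taken as particular to the family. Of all genes tested, TAC was called higher in 9.17% and lower in 5.64% on the control diet. On the BCAA-free diet these shares were 3.31% and 4.41%.

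**Figure D5:**
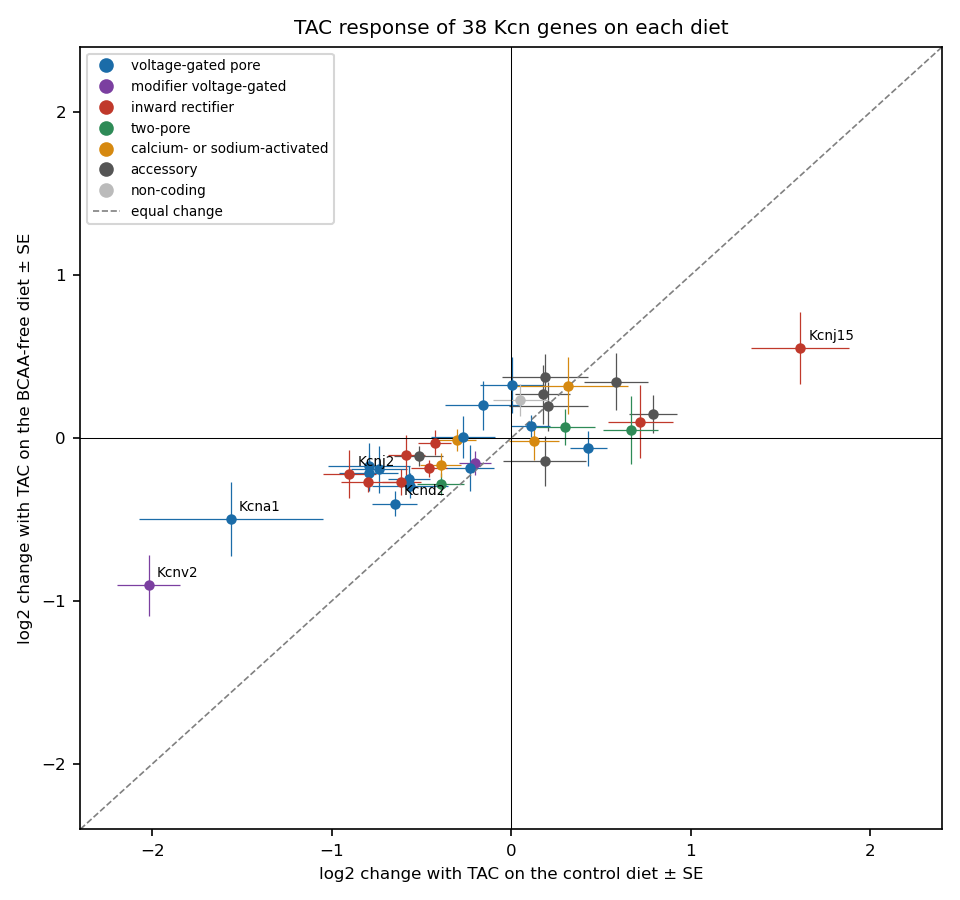
Log2 change with TAC on the control diet (x axis) against that on the BCAA-free diet (y axis) for the 38 genes with a mean of at least 100 normalized reads, ± SE (bars), coloured by class, with the line of equal change dashed. Most points lie nearer to 0 on the y axis than on the x axis, Kcnv2 at the lower left and Kcnj15 at the right being the farthest from 0 among called genes.

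The difference between the diets in the response to TAC did not pass for any gene of the family. Of 64 tested, limma called 0 higher and 0 lower, where 0.171% and 0.503% of all 17493 genes passed. At an unadjusted p below 0.05, for which no share of all genes is given, 13 had a positive and 8 a negative difference. Of the family edgeR called 0 and DESeq2 called 1 positive and 2 negative. The lowest adjusted p-values were those of Kcnv2, with a difference of 1.12 ± 0.26 (SE, adjusted p = 0.069), Kcnk13, with -1.34 ± 0.33 (SE, adjusted p = 0.0755), and Kcne4, with -0.64 ± 0.17 (SE, adjusted p = 0.095). These were also the 3 that DESeq2 called (adjusted p = 0.00287, 0.0113 and 0.0148). In this comparison DESeq2 called 1.60% of all genes positive and 3.11% negative, close to its shares of the family. Among the inward rectifiers the differences were 0.40 (adjusted p = 0.142) for Kcnj8, 0.68 (adjusted p = 0.152) for Kcnj2, 0.53 (adjusted p = 0.176) for Kcnj3, 0.48 (adjusted p = 0.178) for Kcnj5 and -1.06 (adjusted p = 0.208) for Kcnj15, and Kcna5 had -0.49 (adjusted p = 0.158). Without control diet TAC 3, 4 positive and 3 negative differences passed, as did 5.09% and 4.95% of all genes, among the family Kcnv2, Kcnk13, Kcne4, Kcnj8 and Kcnj15, with adjusted p from 0.0151 to 0.0463. Kcnv2 also passed without control diet TAC 1 (adjusted p = 0.0453) and without BCAA-free TAC 1 (adjusted p = 0.0254). The smaller change on the BCAA-free diet is a description of most of these genes.

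Partners of these channels outside the family were read from a list of 17 genes, 13 of them measured. With TAC on the control diet 5 of the 13 fell, where 5.64% of all genes fell, with a median change of -0.23 against -0.02 over all genes. Abcc9, a sulfonylurea receptor that surrounds the ATP-sensitive pores, stood at 28644, 31435 and 34654 normalized reads in control diet sham and 16055, 16701 and 13043 in control diet TAC libraries. Without BCAA the values were 38547, 36133 and 36199 after sham surgery and 21689, 25797 and 25531 after TAC. With TAC it fell by 1.06 on the control diet (adjusted p = 0.00138) and fell by 0.61 on the BCAA-free diet (adjusted p = 0.000664), and it was higher by 0.68 in BCAA-free than in control diet TAC hearts (adjusted p = 0.0064). Lrrc52, a subunit of calcium-gated channels, fell by 1.19 (adjusted p = 0.00646) and was higher by 1.17 with diet in TAC hearts (adjusted p = 0.00776). The calls of both held whichever library was left out. The second receptor Abcc8 fell by 0.49 and the anchoring proteins Akap9 and Dlg1 by 0.46 and 0.40 with TAC on the control diet. The call of Abcc8 was lost without control diet sham 1, 2 or 3 (adjusted p from 0.0523 to 0.067). That of Akap9 was lost without control diet sham 1, 2 or 3 or control diet TAC 1 (adjusted p from 0.0715 to 0.095), and that of Dlg1 without control diet sham 2 or 3 or control diet TAC 1 (adjusted p from 0.0667 to 0.0835).

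On the BCAA-free diet 4 partners fell with TAC and 3 rose, where 4.41% of all genes fell and 3.31% rose, with a median change of -0.25 against 0.0060 over all genes. Beside Abcc9, Dlg1 fell by 0.39 (adjusted p = 0.00106), Akap9 by 0.34 (adjusted p = 0.0045) and Irx3, a transcription factor of the conduction system, by 0.48 (adjusted p = 0.00406), whichever library was left out. Akap9 lost its call in 1 model of 12 libraries (adjusted p = 0.0854). The anchoring and scaffold genes Cav3 and Actn2 were among the rises, by 0.31 and 0.26. The call of Cav3 was lost without BCAA-free sham 3 (adjusted p = 0.0626). That of Actn2 was lost without BCAA-free sham 1, 2 or 3 or BCAA-free TAC 1 or 3 (adjusted p from 0.0548 to 0.128), and without the robust option (adjusted p = 0.055). Both were lost in 1 model of 12 libraries (adjusted p = 0.184 and 0.151). With diet in TAC hearts Lrrc55 was lower by 1.28. That call was lost without control diet TAC 1 or 2 or BCAA-free TAC 1 or 2 (adjusted p from 0.0694 to 0.0927).

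Other channels and pumps of the action potential were read from a list of 22 genes. With TAC on the control diet 1 rose and 2 fell, where 9.17% and 5.64% of all genes did, with a median change of -0.27 against -0.02 over all genes. The pacemaker channel Hcn4 fell by 0.86 and the calcium channel subunit Cacna2d1 by 0.35. The first of these calls was lost without control diet sham 1 (adjusted p = 0.0524). The second was lost without control diet sham 1, 2 or 3 or control diet TAC 1 or 2 (adjusted p from 0.0927 to 0.166). With TAC on the BCAA-free diet, where the median change was -0.11, the calcium release channel Ryr2 fell by 0.37 and the sodium-calcium exchanger Slc8a1 by 0.27. The call of Ryr2 was lost without BCAA-free sham 1 or 3 or BCAA-free TAC 1 or 2 (adjusted p from 0.0562 to 0.134). That of Slc8a1 was lost without BCAA-free sham 1, 2 or 3 or BCAA-free TAC 1 or 2 (adjusted p from 0.0607 to 0.145) and without the robust option (adjusted p = 0.0533). Both were lost in 1 model of 12 libraries (adjusted p = 0.283 and 0.446). In sham hearts Slc8a1 was higher by 0.35 on the BCAA-free diet, and in TAC hearts the calcium channel subunit Cacnb2 was higher by 0.40 and the gap junction gene Gjc1 lower by 0.45. The call of Slc8a1 was lost without BCAA-free sham 1, 2 or 3 (adjusted p from 0.06 to 0.141), and in 1 model of 12 libraries (adjusted p = 0.285). That of Cacnb2 was lost without control diet TAC 1 or 2 or BCAA-free TAC 2 or 3 (adjusted p from 0.0637 to 0.188), and that of Gjc1 without control diet TAC 1 or 2 or BCAA-free TAC 1, 2 or 3 (adjusted p from 0.0928 to 0.118).

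The 2 non-coding RNAs were not called in any comparison with limma or edgeR. On the control diet Kcnq1ot1 stood at 700.0 ± 124 normalized reads after sham surgery and 727 ± 100.4 after TAC, and without BCAA at 668 ± 42.8 and 789 ± 69.6 (mean ± SD, n = 3). The values of Kcnd3os in the same order were 72.2 ± 2.53, 55.0 ± 9.52, 80.7 ± 8.25 and 92.5 ± 16.6. At an unadjusted p below 0.05 in limma, only Kcnq1ot1 was higher with TAC on the BCAA-free diet and only Kcnd3os with diet in TAC hearts. In the latter comparison DESeq2 called 1 of the 2 higher, and 8.47% of all genes.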

How the data were processed

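The 4 tables that the authors deposited compare TAC with sham surgery on each diet and the 2 diets after each surgery. By the file headers, each of the authors' tables holds a signal per library (normalized reads), the authors' log2 fold change, and p-values with adjusted p-values. Dividing by the step found for each library turned 100% of the deposited values into whole reads, within 0.0001 read. Per the submitters' processing notes, the tools used include Subread 1.5.2, STAR 2.5.2b, Trimmomatic 0.36 and DESeq2, with the builds GRCm38 and mm10. The sources used here give no strand setting or annotation, so overlapping genes can share reads. No gene in a table had under 61 reads summed over its 6 libraries.

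The test planned for raw counts was edgeR's. As the values proved to be reads divided by 1 factor per library and table, limma-trend with robust empirical Bayes (limma 3.58.1, R 4.3.3) was run on log2(value + 1), for genes with a mean of at least 10, 3 libraries against 3 in each table, with Benjamini-Hochberg adjustment over all genes. The fit was tested on simulated reads. The difference of TAC responses used all 12 libraries. Alternatives were edgeR 4.0.16, DESeq2 1.42.0 on recovered reads, pseudocounts of 0.5 and 5, other filters and scalings, the authors' adjusted p, 1 model of 12 libraries, and leaving out each library. Fold changes use those deposited factors. Normalized reads per library use factors set jointly over the 12 libraries, and RPKM was computed here from reads, library totals and GENCODE (mouse release 21) exon lengths, so their ratios can differ from the fold changes.

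Genes named were those called in any comparison, the 2 most abundant of each class and a fixed set of cardiac repolarisation genes, with partner and action potential genes from 2 fixed lists. Some genes that this rule names are not reported here. Members and lists were chosen with earlier results of these data known. Positions are GRCm38, promoter sequences are from RefSeq (GRCm38.p6).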

Additional observations from a re-analysis of the deposited data

How the results depend on the processing

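Of the calls, 8 of 22 for TAC on the control diet, 0 of 5 for TAC on the BCAA-free diet, 1 of 3 for diet in sham hearts and 7 of 19 for diet in TAC hearts held in every fit that left out 1 library, and no called gene changed sign in any setting. Leaving out 1 library gave 3 to 14 higher and 5 to 17 lower for TAC on the control diet, 0 to 5 lower for TAC on the BCAA-free diet, 1 to 4 higher and 0 to 1 lower for diet in sham hearts, 4 to 15 higher and 3 to 13 lower for diet in TAC hearts, and 0 to 4 higher and 0 to 3 lower for the difference of TAC responses. DESeq2 called 8 lower for TAC on the BCAA-free diet, 6 higher and 2 lower for diet in sham hearts, 16 higher for diet in TAC hearts, and 1 higher and 2 lower for the difference of TAC responses. Of all genes it called 5.80%, 3.17%, 5.35%, 8.47%, 1.60% and 3.11% in the same order. The authors' deposited table called 8, 6, 2 and 15 in the first 4 of these, and 5.79%, 3.19%, 5.34% and 8.21% of all genes. When all 12 libraries shared 1 model, 1 was lower for TAC on the BCAA-free diet, 0 were higher and 0 lower for diet in sham hearts, and 17 were higher for diet in TAC hearts. The shares of all genes were 0.717%, 0.198%, 0.644% and 11.5% in the same order. Without the robust option 1 was higher for diet in sham hearts, against 0.952% of all genes. Same-numbered libraries did not deviate together (18 pairs, r from -0.284 to 0.183, 2 over 0.1). This does not show whether the numbers pair samples, which the labels do not state. With replicate number as a block, 5 were higher for TAC on the control diet, 2 lower for TAC on the BCAA-free diet, and 1 higher and 0 lower for diet in sham hearts. Of all genes that fit called 6.80%, 1.82%, 0.504% and 1.04% in the same order. The causes of these shifts were not tested. Of changes not called with TAC on the BCAA-free diet, 4 changed sign when 1 library was left out, and ran from -0.21 to 0.031 for Kcnj5, -0.14 to 0.25 for Kcnk2, -0.050 to 0.23 for Kcnk13 and -0.15 to 0.042 for Kcna5. On the recovered whole reads, edgeR called 1638 of all genes higher and 1125 lower for TAC on the control diet (limma 1678 and 1032), and 8 and 15 of the family. Depth limits the genes at few reads, such as Kcnk7 and Kcne1l.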
